A study of Saccharomyces cerevisiae with 4 samples.

Results

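Small nucleolar RNA (snoRNA) genes of Saccharomyces cerevisiae are often followed on the same strand by a protein-coding gene, and the data describe how 10 such genes differed between a wild-type strain and the strain Sen1ΔN. The 10 genes are YDR042C (behind SNR47), CTO1 (behind SNR33), USE1 (behind SNR82), HEM4 (behind SNR5), TRS31 (behind SNR13), FLX1 (behind SNR68), UBX6 (behind SNR60), UBA1 (behind SNR64), PMD1 (behind SNR52) and PDX3 (behind SNR161). They belong to the 32 genes, of 5449 measured, that are the next same-strand protein-coding gene within 1000 bp behind one of the 76 snoRNA genes of the R64 reference table. The 10 were picked from the 32 with the Sen1ΔN minus wild-type differences of these arrays known, and not by size alone, since genes that rose more than UBX6 were left out and genes that did not rise were taken in. Their differences are therefore given as a description, without a test.

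Total RNA from 2 cultures of each strain was measured on 4 Affymetrix Yeast Genome arrays. The design text states independent experiments. Cells grew exponentially at 24 °C in synthetic complete medium with 2% glucose, and no treatment was applied. The wild-type cells were BY4741, of mating type MATa, and carry the alleles ura3_delta_0, met15_delta_0, leu2_delta_0 and his3_delta_1 per the labels. The Sen1ΔN cells are labelled MATα, with ura3-52, trp1-_delta_1, lys2-801, his3-200 and ade2-101. Their labels write the sen1 allele as leu2-_delta_1::sen1-2. The labels do not say which part of Sen1 is missing. The strains thus differ in mating type and marker alleles as well as in SEN1, and a difference due to SEN1 and one due to the background cannot be told apart.

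Sen1 is a helicase of the nucleus. Together with Nrd1 and Nab3, which bind RNA, it ends transcription by RNA polymerase II behind snoRNA genes and other short non-coding genes, without the cleavage used at most mRNA genes. Where that step fails, polymerase can run on into the next gene, and SNR13 with TRS31 behind it is a textbook locus for this read-through. snoRNAs themselves guide the modification of ribosomal RNA. Those of box C/D guide methylation and those of box H/ACA guide pseudouridylation.

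Mating-type genes followed the labels on all 4 arrays. Of the genes labelled as mutant, some gave signal and others were low. All 7 MATa-specific genes were lower and all 5 MATα-specific genes higher in Sen1ΔN. HIS3 was at a log2 signal of 11.93 and 11.94 in the wild type in spite of its his3 label, and LEU2 at 12.17 and 12.21 in Sen1ΔN in spite of its leu2 label. ADE2 (12.25 and 12.01), LYS2 (10.86 and 10.81) and URA3 (7.94 and 8.05) also gave signal in Sen1ΔN. In the wild type, MET17, the met15 gene (3.83 and 4.48), and URA3 (5.08 and 5.21) lay below background. LEU2 was at 6.01 and 6.07 there, and HIS3 at 6.4 and 5.9 in Sen1ΔN. SEN1 itself was higher in Sen1ΔN, by 1.47 log2 (SE 0.09, limma adjusted p = 0.000239). The probe sets of SEN1 and of these marker genes are not placed relative to the altered parts, so these values do not check the alleles. Across genes, the correlation of replicates was 0.997 for the wild type and 0.993 for Sen1ΔN. The 3′ minus 5′ signal of control mRNAs was larger in Sen1ΔN for each of the 6 controls above background throughout, by a median of 2.38 log2 (range 1.24 to 4.03). Its part in the differences below was not tested. The strains differed in 69.7% of all genes (limma adjusted p under 0.05), with 35.3% higher and 34.4% lower in Sen1ΔN, so a call alone says little about a gene here.

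Of the 10 genes, 7 were higher in Sen1ΔN, from 2.91-fold for UBX6 to 45.8-fold for YDR042C. PDX3 was lower, and UBA1 and PMD1 differed by less than 0.15 log2. In counts, 7 of the 10 passed the test higher, against 35.3% of all genes, and 1 passed it lower, against 34.4%. All 7 were at least 2-fold higher, which is 70.0% of the 10 against 8.63% of all genes. The arrays of the strains did not overlap for any of the 10 genes, which also held for 87.1% of all genes. The median difference of the 10 genes was 2.53 log2 and that of all genes 0.01. All values are RMA signals on the log2 scale, from 1 probe set per gene, and all lay above background. A probe set does not tell where an RNA that it detects began.

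**Figure D1:**
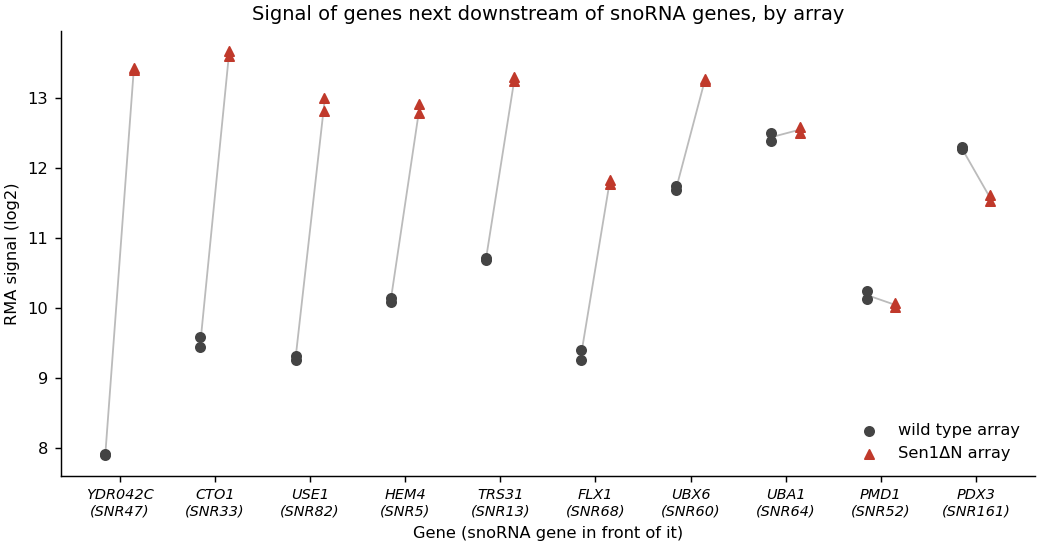
RMA signal (log2) of the 10 genes on the 2 wild-type arrays (circles) and the 2 Sen1ΔN arrays (triangles), with grey lines joining the strain means. The first 7 genes lie higher on both Sen1ΔN arrays, UBA1 and PMD1 differ little, and PDX3 lies lower.

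The largest difference was in YDR042C, an uncharacterised gene behind the C/D snoRNA gene SNR47. The wild-type arrays gave log2 signals of 7.90 and 7.89, and the Sen1ΔN arrays 13.39 and 13.43. Both Sen1ΔN values stood far above the wild type, while replicates differed by at most 0.04. The difference was 5.52 log2 (SE 0.06, n = 2 arrays per strain), or 45.8-fold. Only 4 of the 5449 genes rose more, namely HMLALPHA1, MET17, MF(ALPHA)2 and LEU2, which are mating-type and marker genes.

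CTO1, whose product is needed for cold tolerance, lies behind the H/ACA snoRNA gene SNR33. Its signal was 9.57 and 9.44 in the wild type and 13.66 and 13.59 in Sen1ΔN. The strains did not overlap, and the difference of 4.12 log2 (SE 0.08) corresponds to 17.4-fold. It was the seventh largest rise of all genes.

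Among genes of membrane traffic, USE1 and TRS31 were higher. USE1 encodes a SNARE of the endoplasmic reticulum used in retrograde transport from the Golgi, and lies behind the H/ACA gene SNR82. Its signal was 9.25 and 9.31 in the wild type and 12.99 and 12.81 in Sen1ΔN, a difference of 3.62 log2 (SE 0.09) or 12.3-fold. The Sen1ΔN replicates of USE1 differed by 0.18, the widest gap between replicates among the 10 genes. TRS31 encodes a core subunit of the TRAPP tethering complexes, and lies behind the C/D gene SNR13. Its signal was 10.68 and 10.71 in the wild type and 13.30 and 13.25 in Sen1ΔN. Both Sen1ΔN arrays lay well above the wild type, with a difference of 2.58 log2 (SE 0.07) or 5.98-fold.

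HEM4 and FLX1 serve cofactor metabolism. HEM4 encodes uroporphyrinogen III synthase of the haem pathway, and lies behind the H/ACA gene SNR5. Its signal was 10.13 and 10.08 in the wild type and 12.90 and 12.78 in Sen1ΔN, 2.73 log2 (SE 0.08) or 6.65-fold higher. FLX1 encodes the carrier of FAD in the inner mitochondrial membrane, and lies behind the C/D gene SNR68 with the shortest gap of the 32 genes, 148 bp. Its signal was 9.40 and 9.25 in the wild type and 11.77 and 11.82 in Sen1ΔN, 2.47 log2 (SE 0.08) or 5.54-fold higher. Neither gene overlapped between strains.

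UBX6 and UBA1 encode proteins of the ubiquitin system, a UBX-domain partner of the ATPase Cdc48 and the ubiquitin-activating enzyme. UBX6, behind the C/D gene SNR60, had signals of 11.68 and 11.74 in the wild type and 13.26 and 13.23 in Sen1ΔN, 1.54 log2 (SE 0.07) or 2.91-fold higher. UBA1, behind the C/D gene SNR64, had signals of 12.49 and 12.38 in the wild type and 12.50 and 12.59 in Sen1ΔN. The lowest Sen1ΔN value of UBA1 lay just above the highest wild-type value, and the difference was 0.11 log2 (SE 0.08). It was 0.27 after quantile normalization of the yeast genes. The gap from the snoRNA gene was shorter for UBA1 (251 bp) than for UBX6 (492 bp).

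The remaining pair did not rise. PMD1, a kelch-domain gene linked to the control of meiosis, lies behind SNR52, a C/D snoRNA gene that is transcribed by RNA polymerase III rather than II. Its signal was 10.23 and 10.13 in the wild type and 10.06 and 10.01 in Sen1ΔN, a difference of -0.14 log2 (SE 0.07). PDX3 encodes pyridoxine phosphate oxidase, which makes the active form of vitamin B6, and lies behind the H/ACA gene SNR161. Its signal was 12.27 and 12.29 in the wild type and 11.61 and 11.52 in Sen1ΔN, a difference of -0.71 log2 (SE 0.07) or 1.64-fold lower. Both Sen1ΔN arrays of PDX3 lay below the wild type, the only such case with a call among the 10.

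The risen and the other genes did not separate by snoRNA class or by distance. Of the 4 genes behind H/ACA snoRNA genes 3 rose, and of the 6 behind C/D genes 4 rose. The gap from snoRNA gene to coding gene ran from 148 to 679 bp over the 10 genes, with a median of 265 bp. PDX3, at 229 bp, lay closer to its snoRNA gene than YDR042C did at 398 bp. Over the 10 genes, Spearman's rho of the difference with the gap was -0.14, given as a description since the differences chose the genes. Of the 7 risen genes, 6 were at most 954 bp long, while UBX6 measured 1191 bp. Of the other 3, PDX3, which fell, was short at 687 bp, and UBA1 and PMD1 measured 3075 and 5262 bp. Over all genes, those of up to 1000 bp had a median difference of 0.15 log2 and longer ones of -0.07. Removal of the trend with gene length left the 7 rises between 1.76 and 5.41 log2.

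The flanking genes set each of the 10 beside its neighbours, as a description. They include opposite-strand genes and lie up to 3702 bp away (SRM1 behind USE1). For every locus these are the nearest coding gene in front of the snoRNA gene and the nearest behind the described gene, on either strand, 20 in all of which 19 were measured. Of the 19, 1 (POL4) rose at least 2-fold, beside 8.63% of all genes, and 1 fell as much. Among the 10 genes themselves, 7 rose by this size. In front of the snoRNA gene on the same strand, 6 flanks were measured, from -0.48 (CSG2) to 0.64 log2 (RPL27B). Of these 6, 3 rose and 1 fell, beside 35.3% and 34.4% of all genes. At SNR82, for instance, LSG1 in front averaged 10.99 in the wild type and 10.96 in Sen1ΔN, a difference of -0.03 (SE 0.08, n = 2 arrays per strain), beside the 3.62 of USE1. At SNR5, CAF20 in front rose by 0.46 (limma adjusted p = 0.00502), or by 0.20 with the length trend removed (adjusted p = 0.07). There RFM1 behind HEM4 differed by -0.02 (adjusted p = 0.875).

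**Figure D2:**
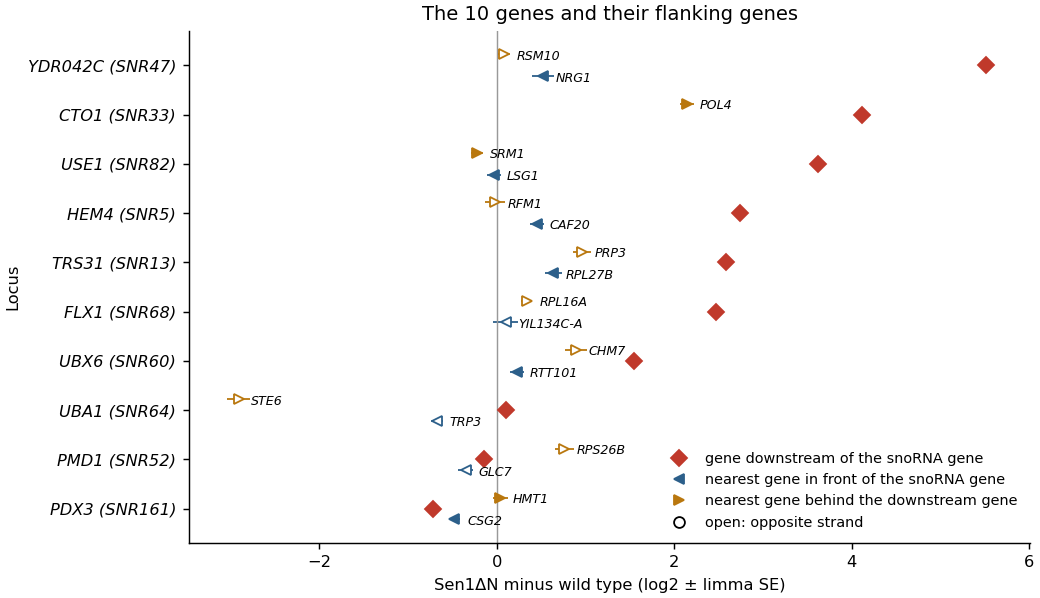
Sen1ΔN minus wild type (log2, bars show the limma SE, hidden where smaller than the symbol) for the 10 genes (diamonds), the nearest gene in front of each snoRNA gene (left triangles) and the nearest gene behind each of the 10 (right triangles), with open symbols for the opposite strand. At the 7 loci with a risen gene, no measured flank other than POL4 exceeds 1 log2.

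POL4, which encodes a DNA polymerase of repair, lies on the same strand 283 bp behind CTO1 and so is the next gene after it. Its signal was 7.29 and 7.15 in the wild type and 9.40 and 9.34 in Sen1ΔN, a rise of 2.15 log2 (SE 0.08, limma adjusted p = 0.000104) or 4.43-fold. At the SNR33 locus the rise was thus seen in both genes of the row, and it was smaller in the farther one. This order was not seen at every locus. Behind SNR69, RGT1 was 2.22-fold higher and AIM26, the gene after it, at least 3.32-fold. POL4 was also among the 5 genes whose values over the 4 arrays lay nearest to the mean profile of the 10 genes, by Euclidean distance after subtracting the wild-type mean. The others were SHU2, SFT1, GCV1 and YGL007C-A. With 4 arrays in 2 groups, this likeness says little more than that they rose by a similar amount.

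Behind TRS31 and UBX6 the next coding gene runs on the opposite strand. PRP3, a splicing factor gene behind TRS31, rose by 0.96 log2 (SE 0.10, limma adjusted p = 0.00114), and CHM7 behind UBX6 by 0.89 (SE 0.12, adjusted p = 0.00271, and 0.0635 in an unmoderated linear model). RSM10 behind YDR042C differed by 0.08 (adjusted p = 0.358). RPL16A, a ribosomal protein gene behind FLX1, rose by 0.34, with a limma adjusted p of 0.0558 or 0.0663 when wild type replicate 1 or 2 was left out. The only fall of at least 2-fold among the flanks was in STE6 behind UBA1, a MATa-specific gene that differed by -2.91.

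At SNR60 a further gene was higher, named here after its values were seen. YJL047C-A, a reading frame of 135 bp, shares 49 bp with the SNR60 gene on the same strand and lies between it and UBX6. Its signal was 7.86 and 7.87 in the wild type and 11.74 and 11.70 in Sen1ΔN, a rise of 3.85 log2 (SE 0.06, limma adjusted p = 1.53e-05) against 1.54 for UBX6 farther on. The rise of YJL047C-A was the ninth largest of all genes, and 3.0 log2 with the length trend removed. The other 7 measured genes that overlap a snoRNA gene on the same strand, each with the snoRNA gene inside it, differed by -0.55 to 0.63 log2. They include the intron hosts EFB1 (-0.12) and ASC1 (0.10).

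The same neighbour rule gives 22 further genes, with a median of 0.51 log2. Of these, 15 were higher (68.2% against 35.3% of all genes), 3 lower (13.6% against 34.4%) and 4 did not pass. Of these 22 genes, 8 rose at least 2-fold, which is 36.4% against 8.63% of all genes. The leading ones were SFT1, a Golgi SNARE gene behind SNR87 (2.21 log2, SE 0.06), and MAD1, a gene of the spindle checkpoint behind SNR10 (2.01, SE 0.11). SMC5, of the Smc5-6 complex, rose by 1.64 (SE 0.10) behind SNR50, and BUD22, of ribosome assembly, by 1.59 (SE 0.07) behind SNR72, the last of a row of snoRNA genes. SEN2, which encodes a subunit of the tRNA splicing endonuclease, rose by 1.40 behind SNR79, and the transcription factor gene RGT1 by 1.15 behind SNR69.

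SFT1 lay at 10.55 and 10.58 in the wild type and at 12.78 on both Sen1ΔN arrays, so its rise exceeded that of UBX6. The lower genes were IMO32 (-1.53, SE 0.17), DFR1, the dihydrofolate reductase gene (-0.81, SE 0.07), and the sterol gene ERG25 (-0.22, SE 0.07). IMO32 lost its call in an unmoderated linear model (adjusted p = 0.0516). ERG25 lost it when wild type replicate 1 or 2 was left out (limma adjusted p = 0.182 and 0.157) and with the length trend removed (-0.05, adjusted p = 0.496). The asparagine synthetase gene ASN1 differed by -0.14 and did not pass (limma adjusted p = 0.218). IMO32 and MAD1 have an opposite-strand gene between them and the snoRNA gene, POP6 and MMS2. Of the 26 genes with no coding gene in between, 17 were higher (65.4% against 35.3% of all genes) and 3 lower (11.5% against 34.4%).

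Over all 32 genes, 22 were higher (68.8% against 35.3% of all genes), 4 lower (12.5% against 34.4%) and 6 did not pass. The median was 0.81 log2. In all, 15 rose at least 2-fold, which is 46.9% of the list beside 8.63% of all genes. The 10 largest rises of all genes held 2 of the 32 and the 50 largest held 5, all of them among the 10 genes. These are descriptions, as the list too was known with its results. Genes up to 300 bp from the snoRNA gene had a median difference of 1.40 log2 (n = 13) and those farther away of 0.45 (n = 19). The 300 bp cut is not one of the distance limits used elsewhere here, and MAD1 rose by 2.01 at 888 bp. Spearman's rho of the difference with the gap was -0.37 over the 32 genes, which share the same 4 arrays. With genes of up to 1000 bp in length set apart, the median was 2.47 over 11 short genes and 0.56 over 21 longer ones, beside 0.15 and -0.07 for all genes of these lengths.

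**Figure D3:**
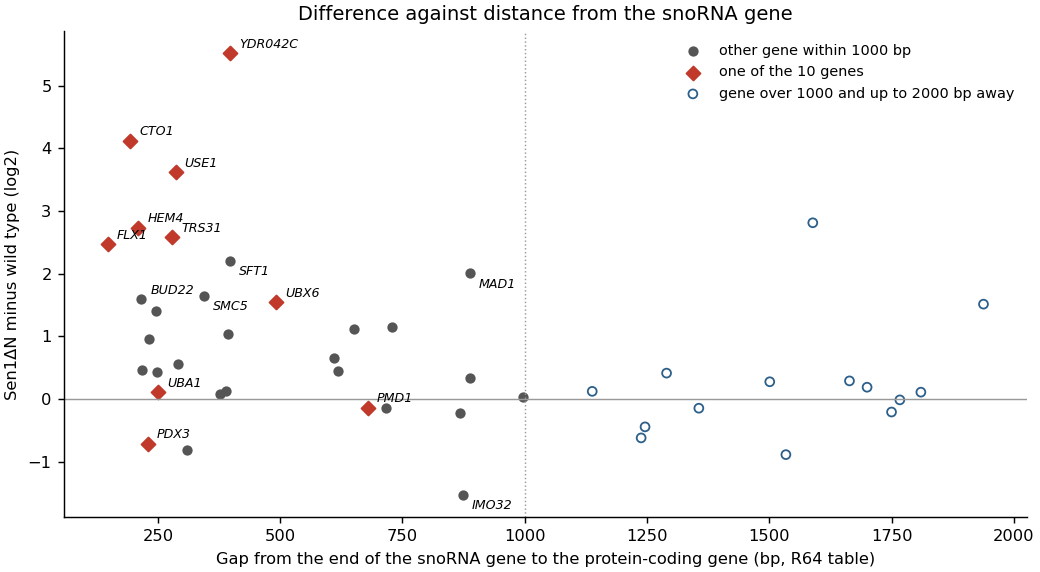
Sen1ΔN minus wild type (log2) against the gap in bp between the snoRNA gene and the next same-strand coding gene, for the 10 genes (diamonds), the other 22 within 1000 bp (filled circles) and the 14 measured between 1000 and 2000 bp (open circles). Differences above 2.5 log2 within 1000 bp lie at gaps under 400 bp, while MAD1 lies at 2.01 with a gap of 888 bp. REC104 is the open circle at 2.81.

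At the edge of the distance limit, CAF40 lay just inside at 996 bp with a difference of 0.03 log2, and OXR1 just outside at 1138 bp with 0.12. The 14 genes between 1000 and 2000 bp had a median of 0.11 log2. Of the 14, 4 were higher (28.6% against 35.3% of all genes) and 3 lower (21.4% against 34.4%). Among them REC104, a meiotic recombination gene behind SNR71, was higher by 2.81 (SE 0.07), and LIN1, which lies between SNR71 and REC104 on the opposite strand, by 1.83 (SE 0.28). The Sen1ΔN values of LIN1 were 9.90 and 10.71, both above the wild-type 8.62 and 8.34, and its adjusted p was 0.0838 in an unmoderated linear model.

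Coding genes in other positions around snoRNA genes had smaller medians within 1000 bp. Within 2000 bp the genes in front had a median of 0.46 log2, above the 0.42 of the downstream genes. Of 24 measured same-strand genes in front of a snoRNA gene within 1000 bp, 13 were higher (54.2%) and 6 lower. Over all genes, 35.3% were higher and 34.4% lower. The median of the 24 genes was 0.37 log2. Ribosomal protein genes made up 6 of the 13 higher genes, with a median of 0.60 log2. REA1, a ribosome assembly gene, rose by 1.16 and was the only rise of at least 2-fold among the 24. In contrast, 2 genes fell at least 2-fold, the cyclin gene PCL1 the most, by 2.55. With the length trend removed, the median of the genes in front was 0.16.

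Of 26 opposite-strand genes behind a snoRNA gene, 7 were higher (26.9%) and 9 lower (34.6%), with a median of -0.07. These shares were 35.3% and 34.4% over all genes. A rise of at least 2-fold was seen in 7.7% of the 26, beside 8.63% of all genes. LIN1 and POC4, a proteasome chaperone gene (1.70, SE 0.07), rose at least 2-fold. Falls of at least 2-fold were called in 4 of the 26, beside 617 of all 5449 genes. The largest was in GLO4, of the mitochondrial glyoxalase system, which fell by 1.65. Of 13 same-strand genes next behind a downstream gene, 5 were higher (38.5%) and 6 lower (46.2%), with a median of -0.24. That median turned positive at the other distance limits (0.54 at 500 bp and 0.039 at 2000 bp). It was -0.38 without wild type replicate 1 and -0.088 without replicate 2. Besides POL4, AIM26 behind RGT1 rose at least 3.32-fold from background, whereas GSC2, a glucan synthase gene behind IMO32, fell by 1.95. Genes behind tRNA genes (n = 128) had a median of 0.00 and genes behind another coding gene (n = 2399) of -0.03. The differences between these lists were not tested.

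**Figure D4:**
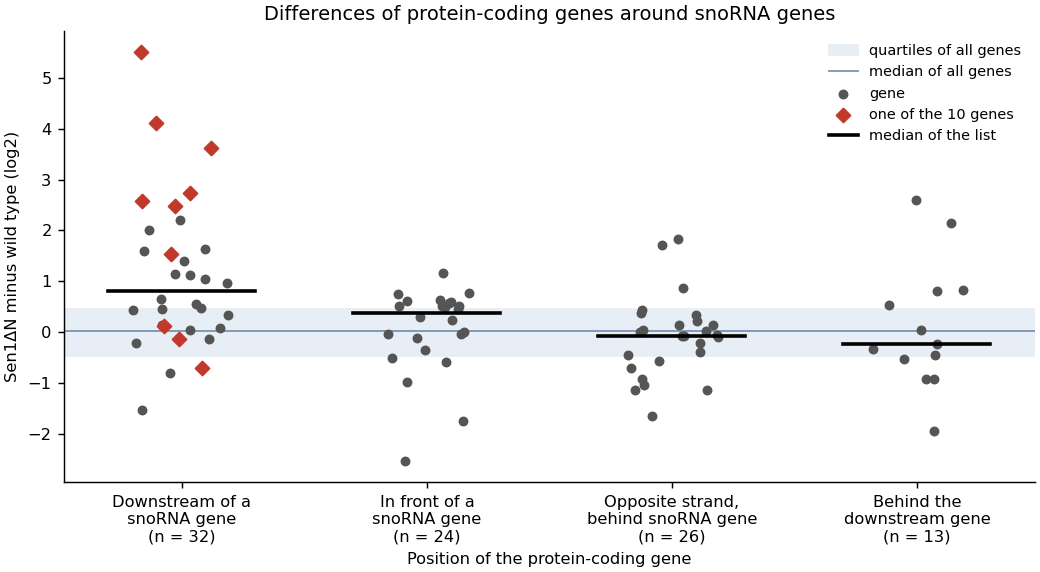
Sen1ΔN minus wild type (log2) for coding genes in 4 positions around snoRNA genes, with black bars for list medians, diamonds for the 10 genes, and a blue band and line for the quartiles and median of all genes. The list of downstream genes has its median at 0.81, above the upper quartile of all genes (0.46), and the other 3 lists have theirs within the band.

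Genes of the machinery that ends or trims snoRNA transcripts were measured as well. Of 9 termination factor genes, 6 were higher and 2 lower, beside 35.3% and 34.4% of all genes. The largest rises were in REF2 (1.54 log2, SE 0.09), close to that of UBX6, in SEN1 (1.47, given above) and in NRD1 (1.06, SE 0.09). PCF11 rose by 0.72 (SE 0.07). NAB3 differed by -0.23 (SE 0.07) and lost its call in several alternative fits. Its limma adjusted p was 0.0536 with the replicate block and 0.0787 with the length trend removed, and its difference was -0.19 without wild type replicate 1. SSU72 (0.27), SWD2 (0.45) and PTA1 (-0.34) lost their call in the unmoderated linear model (adjusted p = 0.0573, 0.0503 and 0.0762). Of the exosome and TRAMP genes tested, PAP2 and MTR4 rose by 0.63 and 0.52. AIR2 rose by 0.47 and lost its call without wild type replicate 1 (limma adjusted p = 0.0599) and in the unmoderated model (0.09), and RRP6 differed by 0.09 (adjusted p = 0.274). RNT1, the RNase III that cuts many snoRNA precursors, rose by 0.33 and lost its call without either wild-type array, without Sen1ΔN replicate 1 and in the unmoderated model (adjusted p from 0.0536 to 0.136).

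Of 8 snoRNP protein genes 7 were higher, beside 35.3% of all genes, by 0.33 to 0.82, and NOP1, which encodes fibrillarin, fell by 1.04. Of the 7 calls, only that of NHP2 (0.73, SE 0.09) held in all alternative fits. CBF5, GAR1, NOP56 and NOP58 lost theirs when a wild-type array was left out, with limma adjusted p from 0.0535 (NOP58) to 0.0944 (NOP56), and GAR1 and NOP56 also in the unmoderated model (0.0581 and 0.063). The short genes NOP10 and SNU13 lost theirs with the length trend removed, at 0.06 and -0.02 (limma adjusted p = 0.466 and 0.804).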

How the data were processed

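Titles of the samples gave groups and replicate numbers. The deposited values are log2 signals, 1 per probe set and array. The authors used RMA and Affymetrix Expression Console, per the submitters' processing notes, with no version stated. RMA gives arrays a common distribution, so a change in total mRNA per cell is not seen. Differences near the top of the scale may be understated, which was not tested. Precision is limited by the number of arrays.

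Of 10928 probe sets, 5498 carried 1 S. cerevisiae gene by the platform annotation (IDs matched to the R64 table), and their mean per gene gave 5449 genes. The 95th percentile of the 1746 S. pombe probe sets (5.23 to 5.36 log2) served as background. Strand was read from the systematic names and neighbours from R64 gene order. No source used here names the array's genome build, so no coordinates are printed. A gene that overlaps the snoRNA gene was passed over.

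Differences were fitted with limma 3.58.1 in R 4.3.3 (lmFit and eBayes, two-sided, 2 residual degrees of freedom, Benjamini-Hochberg over 5449 genes, called at an adjusted p under 0.05) and tested on simulated data first. Errors are limma SEs. With 2 cultures per strain, p-values reflect only the spread between replicate cultures. In eBayes, the spread of each gene is also drawn towards that of all genes. Members and lists were chosen with earlier results of these data known. Named genes are the 10, their flanks, the 6 largest rises and falls among the other downstream genes, up to 3 each way of other neighbour lists, and fixed lists of termination, exosome, snoRNP, mating-type and marker genes. Alternative settings were quantile normalization, median centring, the replicate number as a block, 1 array left out at a time, a background filter, other moderation or none, the brightest probe set, removal of a loess trend (span 0.5) on log2 gene length, and other distance limits.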

Additional observations from a re-analysis of the deposited data

How the results depend on the processing

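The 7 rises and the fall called among the 10 genes kept their call and direction under every alternative fit, namely quantile normalization, median centring, the background filter, both other moderations, the brightest probe set, the length trend, the replicate block and 1 array left out at a time. With 1 array left out, a strain has a single array, which is assumed to vary like the other strain, so those fits bear on the size of a difference more than on its call. Under quantile normalization UBA1, at 0.27 log2, gained a call that it did not have in the main fit. Of the 68 named genes called in the main fit, 28 lost their call in at least 1 of these fits, none of them among the 10. The 10 were picked with the differences of these arrays known, so their kept calls are a description and not a test. An unmoderated linear model called 2445 genes in all, against 3796. Leaving out 1 array gave 2907 to 3879 calls over all genes, and 19 to 22 higher and 3 to 4 lower among the 32. The median of the 13 genes behind a downstream gene then ran from -0.38 (without wild type replicate 1) to -0.088 (without wild type replicate 2). With the replicate number as a block, 3471 genes were called, 21 of the 32 higher and 3 lower. The numbers share no stated batch, and same-numbered arrays deviated together with a correlation of -0.03 across genes. With the length trend removed, the median was 0.88 for the 32 genes, 0.16 for genes in front and -0.18 for opposite-strand genes. With a limit of 500 bp, 16 downstream genes were higher and 2 lower. The medians were 1.40 (downstream), 0.29 (in front) and 0.54 (behind the downstream gene, reversed). With 2000 bp, 26 downstream genes were higher and 7 lower. The medians were 0.42, 0.46 and 0.039 (the last again reversed, and the genes in front above the downstream genes). These limits change which genes are counted, so the counts do not share a total with the 32. Without snoRNA genes inside coding genes, 19 of 28 were higher (67.9% against 35.3% of all genes) and 3 lower (10.7% against 34.4%). Leaving out genes with a coding gene between, chosen after seeing the data, gave 17 higher and 3 lower of 26. With 2 arrays per strain, small differences such as those of UBA1 and PMD1 are not well resolved.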
